A study of Mus musculus with 16 samples.

Results

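Among 25905 genes counted in the mouse retina, 5 transcripts that carried no gene name in the annotation used for counting are described here: 2610034M16Rik, A430035B10Rik, 1700027L20Rik, LOC100502914 and A930033H14Rik. They were chosen by symbol, because the comparison of spaceflight with ground control deposited by the authors placed them among the largest changes. Symbols ending in Rik name RIKEN full-length cDNA clones, and symbols starting with LOC name loci predicted at NCBI that had not yet been given a gene name. Such transcripts are a mixture of protein-coding genes awaiting a name, long non-coding RNAs and predictions that are later withdrawn, and in most pathway collections they have no entry. In the retina, a layered tissue dominated by rod photoreceptors, they are counted alongside the named genes.

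RNA from the right retina of 16 male wild type C57BL/6 mice was sequenced. The spaceflight group held 8 mice, 10 weeks old per the labels, that spent a flight of 35 days in orbit on the International Space Station and whose eyes were taken after the return to Earth. The ground control group held 8 mice of the same age kept on Earth in identical hardware, with the same diet and a light period of 12 hours. The flight, launch, landing and the time on Earth before dissection are all part of the spaceflight group and cannot be told apart. The 16 deposited count columns carry laboratory codes (CFG2279 to CFG2294) that no sample description pairs with a mouse or a group. No difference between spaceflight and ground control is therefore given for any transcript, and each value below is the level in a library or the spread over all 16 libraries. Because both groups are among the libraries and the transcripts were chosen for a difference between them, the spread over libraries holds that difference, and its size is a description and no finding.

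Of the 5 transcripts, 4 were matched to the RefSeq gene table of assembly GRCm38.p6, 2 by symbol and 2 by an older symbol. 2610034M16Rik is now Pdzph1, a protein-coding gene on chromosome 17 that is named for its PDZ and pleckstrin homology domains, which bind protein tails and membrane lipids. 1700027L20Rik is now Prss56, a protein-coding gene on chromosome 1 for a secreted serine protease known for its part in setting the size of the eye. A430035B10Rik, on chromosome 6, is listed as a long non-coding RNA. A930033H14Rik, on chromosome 10, is listed as protein-coding and still has no gene name. LOC100502914 was not matched, so neither its position nor its sequence is given. The name of Pdzph1 was also reached through the accession of the counted record, and that of Prss56 through the older symbol alone.

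The promoters of the 4 matched transcripts, each 250 bases before and 50 bases after the annotated start, are shown because little else is annotated for these transcripts and their starts differ widely in composition. Capitals mark matches, on either strand, to the motifs searched: TATAAA (the TATA box), CCAAT (the CCAAT box bound by NF-Y), GGGCGG (the GC box), TAATCC (the core recognised by the photoreceptor factor CRX) and CACGTG (an E-box). The sequences are from RefSeq, GRCm38.p6, and run 5′ to 3′ along the transcribed strand.
2610034M16Rik (Pdzph1), chr17:58991326-58991625, minus strand: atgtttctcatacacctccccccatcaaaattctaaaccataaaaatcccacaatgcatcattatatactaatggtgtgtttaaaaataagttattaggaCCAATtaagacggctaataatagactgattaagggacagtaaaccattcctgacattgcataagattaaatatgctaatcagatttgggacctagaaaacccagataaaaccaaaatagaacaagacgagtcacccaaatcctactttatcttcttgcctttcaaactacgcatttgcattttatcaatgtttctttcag
A430035B10Rik, chr6:8509112-8509411, minus strand: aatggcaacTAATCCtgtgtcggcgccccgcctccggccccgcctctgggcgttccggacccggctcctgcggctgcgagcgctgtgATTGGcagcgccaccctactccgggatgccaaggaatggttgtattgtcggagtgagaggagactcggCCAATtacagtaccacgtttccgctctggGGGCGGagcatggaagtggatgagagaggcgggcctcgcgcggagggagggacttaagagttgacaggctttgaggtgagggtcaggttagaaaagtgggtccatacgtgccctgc
1700027L20Rik (Prss56), chr1:87183064-87183363, plus strand: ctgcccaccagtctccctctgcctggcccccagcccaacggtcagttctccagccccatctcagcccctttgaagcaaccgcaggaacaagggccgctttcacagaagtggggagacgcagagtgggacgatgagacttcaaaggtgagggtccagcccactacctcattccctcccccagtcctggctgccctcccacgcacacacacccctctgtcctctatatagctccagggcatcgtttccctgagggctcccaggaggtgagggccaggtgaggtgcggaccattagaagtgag
A930033H14Rik, chr10:69213049-69213348, minus strand: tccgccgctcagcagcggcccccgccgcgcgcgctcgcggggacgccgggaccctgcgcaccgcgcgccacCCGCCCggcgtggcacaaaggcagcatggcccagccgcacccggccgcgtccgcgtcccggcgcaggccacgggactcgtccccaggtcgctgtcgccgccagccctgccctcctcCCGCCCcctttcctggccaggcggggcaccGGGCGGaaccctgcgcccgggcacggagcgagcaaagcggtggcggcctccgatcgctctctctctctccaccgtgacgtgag

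The 4 promoters differed widely in composition. That of A930033H14Rik had a GC content of 78.3%, higher than 98.2% of the 32851 promoters in the table, and 46 CpG dinucleotides, against a median of 52.7% and 7. That of Pdzph1 lay at the other end, with a GC content of 33.7%, a value higher than only 2.61% of all promoters, and 3 CpG dinucleotides. A430035B10Rik had 62.3% and 23 CpG dinucleotides, and Prss56 had 61.7% and 8.

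CCAAT or its reverse complement stood at position -150 of Pdzph1 and at -95 and -163 of A430035B10Rik, counted in bases from the start, and it was found in 37.4% of all promoters. The GC box stood at -66 of A430035B10Rik and at -33, -63 and -179 of A930033H14Rik, and it was found in 35.7%. TAATCC stood at -241 of A430035B10Rik and was found in 7.06% of all promoters. TATAAA and CACGTG, present in 13.6% and 7.15% of promoters, matched in none of the 4, and the window of Prss56 held no match to any of the 5 motifs. Only the exact letters were searched, so variants, such as TATATA in the window of Prss56, were not counted. These matches describe letters in a window, and binding was not measured.

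The transcripts also differed in structure. Pdzph1 (NM_027001.1) has 4174 bases in 13 exons and Prss56 (NM_027084.2) has 2180 bases in 13 exons. A430035B10Rik (NR_040452.1), with 1913 bases, and A930033H14Rik (NM_001331193.1), with 2969 bases, each have 2 exons. The GC content of A430035B10Rik was 36.9%, with 0.551% of genes lower, whereas that of Prss56 was 61.2%, with 96.8% of genes lower. Pdzph1 had 44.6% and A930033H14Rik had 48.9%, against a median of 50.4% over 11071 genes with a median normalised read count of at least 10 and a reference transcript. The exons counted by the authors came from an older annotation, and for A430035B10Rik, A930033H14Rik and Prss56 the counted record was not among the accessions of the gene table.

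Reads assigned to records numbered between 5331518 and 8568052 per library, and each count was divided by a size factor of 0.781 to 1.21 to give a normalised read count. Pde6a, a phosphodiesterase subunit that defines rods, ranged from 19797 to 25947 normalised reads. The 5 of 6 blood markers in the table summed to 28.4 at most, with Alas2 at 0. The summed level of 6 lens markers ranged from 37.0 to 100522, and its highest value, in library CFG2280, was 9.0 times the next. Between 9.55% and 11.96% of reads were left uncounted by the authors because they overlapped more than 1 record. Rlbp1, Pde6c and Pecam1 were near 0 although they are defining markers of Müller glia, cones and endothelium. A link to the uncounted reads was not tested. Of 6 markers per list, 4 reached a median of 10 for cones and 4 for pigment epithelium and melanocytes. For bipolar cells, ganglion cells, Müller glia and endothelium, 5 of 6 did so.

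2610034M16Rik (Pdzph1) was by far the most abundant of the 5 transcripts. The mean normalised read count deposited by the authors was 3208, which placed it at rank 260 of all genes. In single libraries it had 1689 to 5569 reads, and its normalised read count ranged from 1734 in CFG2288, through a median of 3267, to 4604 in CFG2281. No library lay between 2716 and 3818, so the median fell in a gap, and without CFG2280 it was 2704. The highest library was 2.65 times the lowest. Counting error was small beside this, with 95% Poisson intervals of 1656 to 1816 for the lowest library and 4484 to 4727 for the highest, and counting accounted for 0.336% of the variance over libraries on the log2 scale.

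A930033H14Rik followed, with a mean of 557 and rank 2675. Its normalised read count was lowest in CFG2279 at 401, had a median of 559.6 and was highest in CFG2289 at 693, a ratio of 1.73, the smallest of the 5. The intervals of these 2 libraries, 360 to 445 and 640 to 750, did not overlap. Between these extremes, libraries that were neighbours in level had overlapping intervals in 15 of 15 pairs, against 10 of 15 for Pdzph1.

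LOC100502914 had a mean of 153 and rank 6593, and its neighbouring libraries too had overlapping intervals in 15 of 15 pairs. It was lowest in CFG2283 at 88.8 (95% interval 69.9 to 111), had a median of 141 and reached 259 (229 to 292) in CFG2288, a ratio of 2.92. In CFG2288 the level of Pdzph1 was at its lowest.

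A430035B10Rik and Prss56 had means of 65.6 and 54.6 and ranks of 8896 and 9286. Their means were higher than 54.8% and 52.8% of genes with a mean above 0. A430035B10Rik was counted with 38 to 95 reads. Its normalised read count was 36.7 (95% interval 26.1 to 50.2) in CFG2280, the library with most lens RNA, 64.4 at the median and 104 (82.4 to 129) in CFG2291, a ratio of 2.82. Without CFG2280 the lowest value was 37.9, in CFG2284, and the median was 68.0. Prss56 was counted with 22 to 118 reads. It ranged from 23.7 (15.4 to 35.1) in CFG2288 through 54.5 to 97.6 (80.7 to 117) in CFG2281, a ratio of 4.11, the widest of the 5. For these 2 transcripts counting accounted for 13.6% and 11.2% of the variance on the log2 scale, and libraries that were neighbours in level had overlapping intervals in 15 of 15 pairs for each, so the order of neighbouring libraries was not detectable at this depth. The intervals cover counting error only, since copies made by PCR were not told apart.

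**Figure D1:**
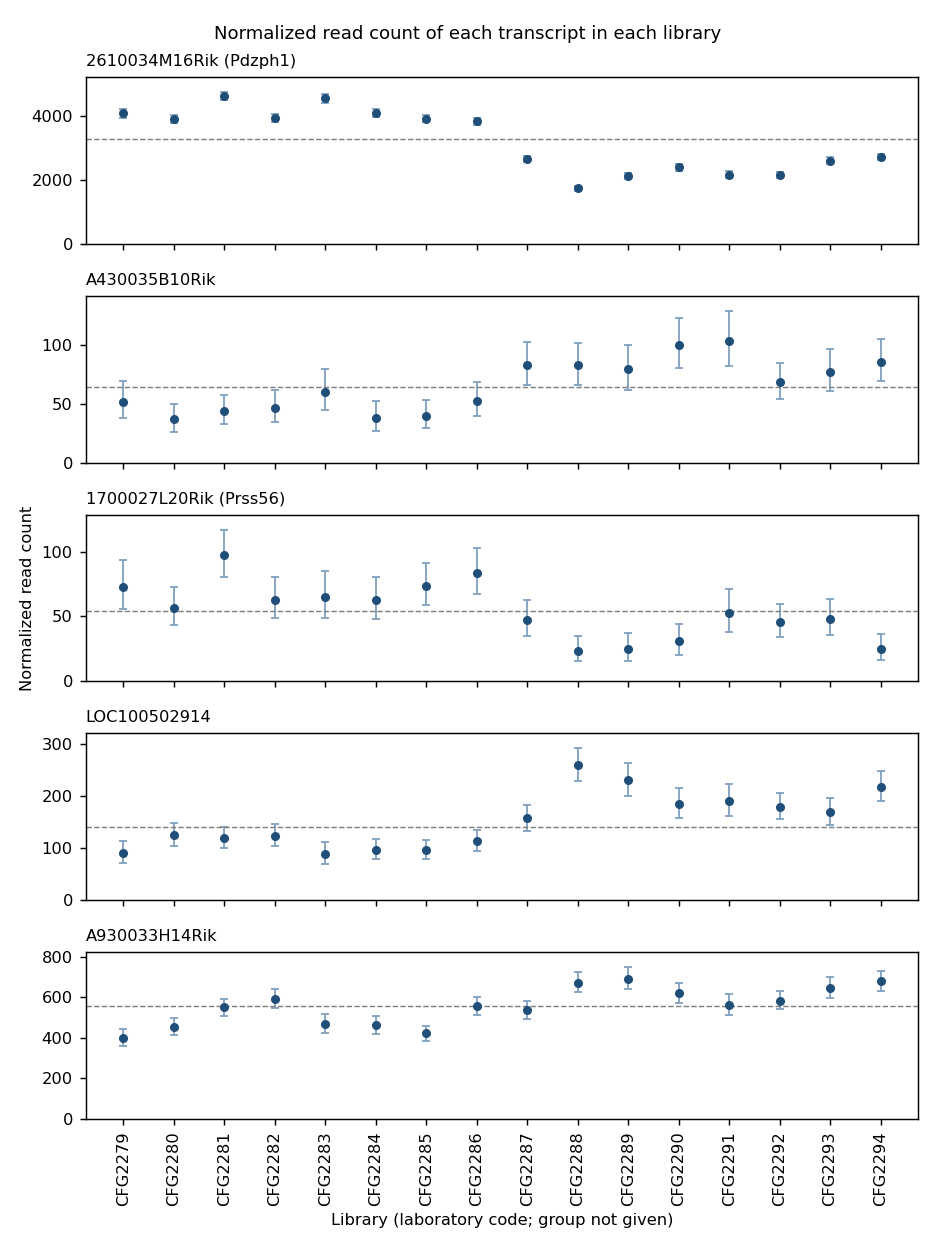
Normalised read count of each of the 5 transcripts (vertical axes, starting at 0) in each of the 16 libraries, in the order of their laboratory codes, which carry no group. Points are single libraries, bars are 95% Poisson intervals of the count and dashed lines are medians, so that 2610034M16Rik, between 1734 and 4604, has the narrowest intervals relative to its range.

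Per base of the reference transcript the order of the 4 matched transcripts was kept. For A430035B10Rik, A930033H14Rik and Prss56 the counted record may differ in length from that transcript. Pdzph1 had a median of 783 normalised reads per kilobase, higher than 96.3% of genes, and A930033H14Rik had 188, higher than 78.6%. A430035B10Rik had 33.6 and Prss56 had 25.0 per kilobase, higher than 31.3% and 25.3% of genes, against a median of 68.5 over all genes with a reference transcript.

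The 5 transcripts were set beside the 200 genes nearest in median level, since the spread of a gene over libraries falls as its count rises. Spread was taken as the interquartile range of log2(normalised read count + 1) over the 16 libraries. The transcripts were chosen for a difference between groups that are both among these libraries. A high place among other genes therefore follows in part from the choice and is a description only. For Pdzph1 it was 0.77, 6.99 times the median of its like-level genes, and all 200 had a smaller spread. For LOC100502914 it was also 0.77, again with all 200 smaller, and 3.32 times their median. A930033H14Rik had a smaller spread of 0.43, and 99.5% of the 200 genes at its level varied less, the median being exceeded 3.0 times. A430035B10Rik, at 0.84, exceeded 196 of its 200 genes, and Prss56, at 0.68, exceeded 194. For these 2 low-count transcripts the ratio to like-level genes was 2.55 and 1.89. The order by absolute spread, with A430035B10Rik first, was therefore not the order relative to genes of like level, with Pdzph1 first. Among all 12255 genes with a median of at least 10, the ranks of the spread were 368 for A430035B10Rik, 484 for LOC100502914, 489 for Pdzph1, 779 for Prss56 and 2425 for A930033H14Rik, where the median gene had a spread of 0.22.

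**Figure D2:**
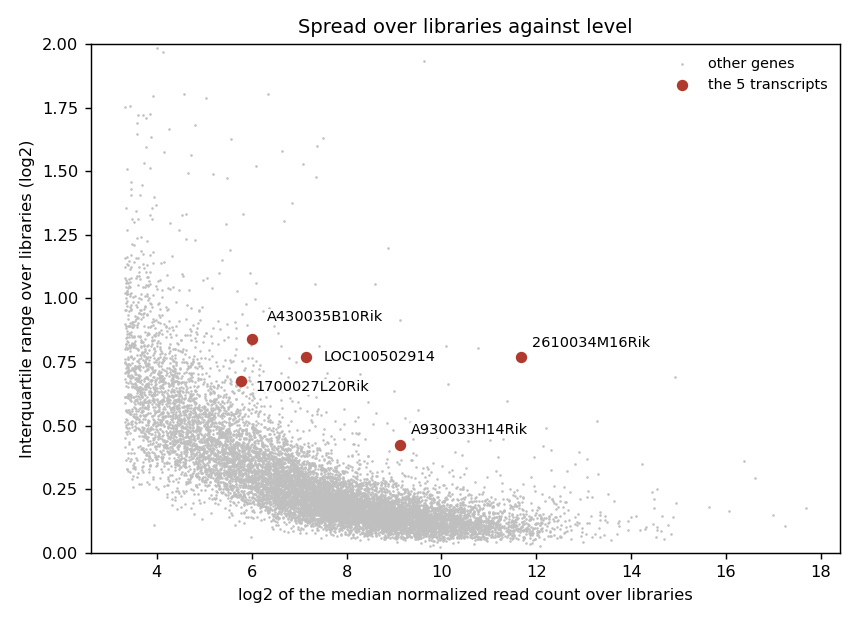
Interquartile range over 16 libraries (log2 scale, vertical axis) against log2 of the median normalised read count (horizontal axis) for 12255 genes in grey, with the 5 transcripts in red. Above the axis end of 2 lie 39 genes that are not drawn. The 5 transcripts sit above most genes of their own level, with 2610034M16Rik at 0.77 farthest from the median of such genes.

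Unnamed transcripts as a class were low in the retina, and the 5 ranged from its top to the middle of its detected members. Of 5864 symbols of the Rik, LOC or Gm form, 1500 (25.6%) had a median normalised read count of at least 10, against 53.7% of the 20041 other symbols. Pdzph1 was rank 7 among these 5864 by level and rank 3 of 2152 Rik symbols. A930033H14Rik was rank 104, LOC100502914 rank 429, A430035B10Rik rank 705 and Prss56 rank 755. Among the 1500 with a median of at least 10, the median level was 56.1, so that Prss56, at 54.5, was just below the middle and A430035B10Rik, at 64.4, just above it, and both were below the median of 90.1 of the detected Rik symbols. By spread among the 1500, A430035B10Rik was rank 83, LOC100502914 rank 117, Pdzph1 rank 121, Prss56 rank 197 and A930033H14Rik rank 589. Like Pdzph1 and Prss56, 914 of the 2152 Rik symbols have a gene name in the newer table.

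In the libraries at the ends of the range of Pdzph1, the other transcripts differed in direction. In CFG2281, where Pdzph1 was highest at 4604, Prss56 stood at 97.6, LOC100502914 at 119, A430035B10Rik at 43.8 and A930033H14Rik at 551. In CFG2288, where Pdzph1 was lowest at 1734, Prss56 stood at 23.7, LOC100502914 at 259, A430035B10Rik at 82.6 and A930033H14Rik at 673. Prss56 was thus lower in CFG2288 along with Pdzph1, and the other 3 had higher values there. All 5 transcripts were chosen by the same contrast, so that such an arrangement follows in part from the choice.

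**Figure D3:**
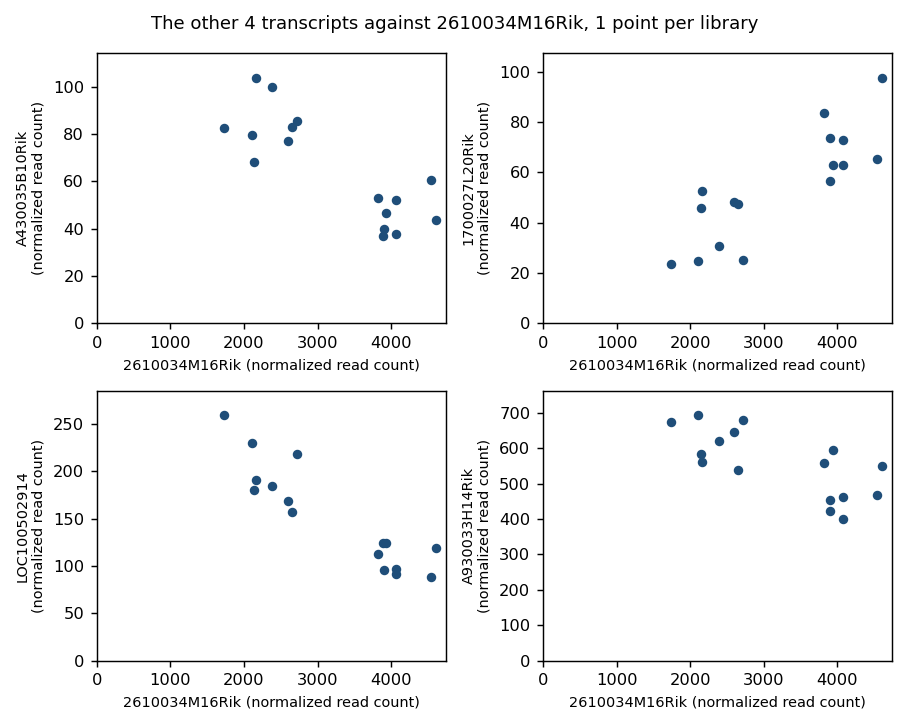
Normalised read counts of the other 4 transcripts (vertical axes) against that of 2610034M16Rik (horizontal axes), with 1 point for each of the 16 libraries and all axes starting at 0. Prss56 (1700027L20Rik) was higher where 2610034M16Rik was high, and A430035B10Rik and LOC100502914 were lower in all of those libraries. A930033H14Rik was lower in most of them, with overlap (594 in CFG2282 against 537 in CFG2287). No point lies between 2716 and 3818 on the horizontal axis.

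For each transcript the 3 genes most like it over the 16 libraries were taken by Pearson correlation (r) of log2(normalised read count + 1), among 9411 genes with a median of at least 50. These values share libraries, scaling and the contrast that chose the transcripts, and they are given as a measure of likeness only. Most like Pdzph1 were Hpcal1, a neuronal calcium sensor (r = 0.97), Sag, the arrestin of rods (0.95), and Pcmtd2 (0.95). Sag was far more abundant, with 19661 to 39246 normalised reads. At the other end of the range stood Irf7, a regulator of interferon genes, with r = -0.97.

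Most like A430035B10Rik were Per3, a gene of the circadian clock (r = 0.92), Btaf1, an ATPase that removes the TATA-binding protein from DNA (0.90), and Irf7 (0.88). Irf7 was also on the list of LOC100502914, where it came first (0.91), followed by Drd4, the dopamine D4 receptor of photoreceptors (0.90), and Sik2, a salt-inducible kinase (0.88). The level of Irf7 ranged from 84.8 to 370 and that of Drd4 from 1130 to 2516. Most like Prss56 were Mepce, which caps the 7SK RNA (0.87), Eif4a3, a helicase of the exon junction complex (0.87), and Memo1 (0.86). Most like A930033H14Rik were Hk2, the hexokinase of glycolytic tissues (0.88), LOC100502914 (0.87) and Egln1, the prolyl hydroxylase that marks hypoxia-inducible factors for degradation (0.84). With rank correlation in place of Pearson's, 0 of these 3 genes were kept for Prss56, 0 of 3 for LOC100502914, 1 of 3 for A430035B10Rik (Per3), 1 of 3 for A930033H14Rik (Hk2) and 2 of 3 for Pdzph1 (Hpcal1 and Pcmtd2). The number of genes with r above 0.8 was 48 for Pdzph1, 26 for Prss56, 24 for A430035B10Rik, 19 for LOC100502914 and 6 for A930033H14Rik. The number with r below -0.8 was 21, 8, 27, 54 and 8 in the same order, and the median r over all candidates lay between -0.04 and 0.04.

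Of the marker lists for 11 cell types and tissues, those of amacrine and horizontal cells ran closest to the transcripts. Their summed level, from 5 of 6 markers in the table, varied from 5443 to 6322, a ratio of 1.16. The sum rests mainly on Gad1, Slc6a9 and Calb2, with medians of 2426, 1735 and 1518. Lhx1 and Onecut1 had medians of 48.0 and 87.6 only. The summed level correlated with Prss56 at r = 0.59, with Pdzph1 at 0.49, with A930033H14Rik at -0.57, with A430035B10Rik at -0.59 and with LOC100502914 at -0.63 (n = 16 libraries). The Müller glia list, which varied from 24657 to 29258, correlated with LOC100502914 at 0.51, A430035B10Rik at 0.33, A930033H14Rik at 0.32, Prss56 at -0.23 and Pdzph1 at -0.40. Glul, with a median of 17470, and Apoe, from 3397 to 7230, made up most of the sum of this list. In whole retina, fewer cells of a type and less RNA per cell cannot be told apart, and the part of these markers in the spread of the transcripts was not tested. Both groups are among the libraries and the transcripts were chosen by their contrast, so these r values are a description only. The other lists varied from 4738 to 6788 in summed level for cones, 10296 to 11746 for bipolar cells, 6061 to 7456 for ganglion cells, 272 to 2278 for pigment epithelium and melanocytes, 1453 to 1913 for endothelium and 205 to 286 for microglia, and the 55 values of r over all lists and transcripts lay between -0.63 and 0.59. The lens list gave r between -0.20 and 0.09, and the numbers of reads and the shares of uncounted reads gave 20 values between -0.44 and 0.44.

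The neighbours of the transcripts differed in kind. A430035B10Rik starts head to head with Glcci1, a gene induced by glucocorticoids, on the opposite strand, and the gene bodies are 438 bases apart in RefSeq. In GENCODE M21 a further transcript of A430035B10Rik starts inside Glcci1, and its first exon overlaps the first exon of Glcci1. Glcci1 was much the more abundant, with 1298 to 1758 normalised reads and a median of 1555. Over the libraries the pair had r = 0.56 (Spearman correlation 0.49). A930033H14Rik overlaps Rhobtb1, a gene of an atypical small GTPase on the opposite strand, with a start of Rhobtb1 14 bases from its own. Here the unnamed transcript was the more abundant, since Rhobtb1 ranged from 144 to 262 with a median of 179, and the pair had r = 0.52 (Spearman 0.49). Of the 2969 exon bases of A930033H14Rik, 15 (0.505%) are also exon bases of Rhobtb1. The strand setting of the counting is not given in the sources used here, so reads from exons shared with Rhobtb1, or with Glcci1 where the longer form of A430035B10Rik is made, cannot be assigned to one strand.

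**Figure D4:**
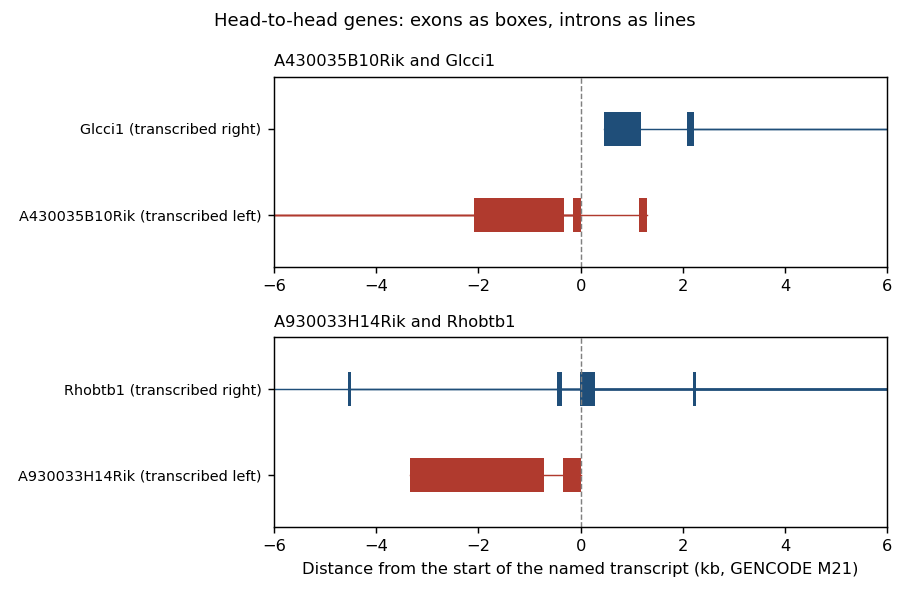
Exons (boxes) and introns (lines) of A430035B10Rik with Glcci1 and of A930033H14Rik with Rhobtb1, all annotated transcripts drawn together, by distance in kilobases from the start of the unnamed transcript (GENCODE M21). Only the stretch near this start is drawn, and exons farther away on either side are not shown. The unnamed transcripts in red run left and their partners in blue run right, with the nearest partner start 462 bases from the start at 0 for Glcci1 and 14 bases for Rhobtb1, and a further A430035B10Rik exon overlapping the first exon of Glcci1.

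The neighbours of Prss56 and Pdzph1 that were in the count table had 3 reads at most. Chrnd, a subunit of the muscle acetylcholine receptor 2191 bases beyond Prss56 on the same strand, had 0 reads in all 16 libraries, and Gm33292 lies 10855 bases away on the other side. Nudt12os, an antisense transcript 4875 bases from Pdzph1, counted as 4930505H01Rik, had 0 to 3 reads. Gm33751, a long non-coding RNA that overlaps Pdzph1, and Gm9284, a pseudogene 75.2 kb away, were not matched to the count table. The remaining neighbours, Gm26075, a snoRNA 5702 bases from A430035B10Rik, and Gm33263 and Gm40685, 58.4 and 99.0 kb from A930033H14Rik, were not matched either.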

How the data were processed

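Total RNA (100 ng per retina) from 8 spaceflight and 8 ground control mice was made into stranded libraries after depletion of ribosomal RNA. Per the labels and the study's methods, the authors trimmed reads with Trimmomatic, mapped them with TopHat2 and counted them with HTSeq per transcript record of an NCBI mouse build older than GRCm38, and normalised and compared them with DESeq2 1.22.2 in R 3.5.1. The strand setting of the counting is not given in the sources used here. The count table deposited by the authors holds whole-number read counts of 31616 records in 16 columns, whose laboratory codes match no sample; these 16 columns served for the spread over libraries only. The signal value in the table deposited by the authors averages, for each gene and the whole series, counts that DESeq2 had divided by size factors. The other columns of that table hold the authors' log2 fold-changes, standard errors, statistics and p-values of spaceflight against ground control, and were not used. The 5 members and all lists were chosen with earlier results of these data known.

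Counts were divided by median-of-ratios size factors computed from the 16 columns. The mean so obtained was within 0.1% of the deposited mean for 96.4% of 19643 symbols and within 0.00276% for the 5 members. A symbol was represented by its record with most reads, and each member had 1 record. Spread was the interquartile range of log2(normalised count + 1), compared with the 200 genes nearest in median among those with a median of at least 10. Likeness was the Pearson correlation among genes with a median of at least 50. Named were the 5 members, the 3 genes most like each, the annotated neighbours and the defining markers, with the genes of lowest correlation, Rlbp1, Pde6c and Pecam1 added after their values were seen. Single markers of the amacrine and horizontal cell list and of the Müller glia list were also named after their values were seen. Intervals are exact Poisson intervals at the 95% level. Lists of markers covered rods, cones, bipolar cells, amacrine and horizontal cells, ganglion cells, Müller glia, pigment epithelium and melanocytes, lens, endothelium, microglia and blood. The summed level of the rod list is not reported here. Gene names, promoters and neighbours came from RefSeq (GRCm38.p6) and transcripts from GENCODE M21, and positions were not carried over to the authors' build. Alternatives were total-count and upper-quartile scaling, a pseudocount of 10, no filter, 1000 nearest genes, a minimum of 10, rank correlation, and leaving out libraries. The steps were tested on simulated data. The genes tested there had means above those of LOC100502914, A430035B10Rik and 1700027L20Rik, so the depths of these transcripts were not tested. Computations used scipy 1.17.1, numpy 2.4.6 and pandas 2.3.3 under Python 3.11.15, and plots matplotlib 3.10.9.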

Additional observations from a re-analysis of the deposited data

How the results depend on the processing

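Recomputed were 105 values, for the level, the spread, its place among like-level genes and the most similar genes. Of these, 101 stayed within the limits set for them and 4 moved. For level and spread the limit was the standard deviation over libraries, which is wide. The median level of 2610034M16Rik went from 3267 to 2704 without the library richest in lens RNA and still counted as unmoved. The 4 that moved were all lists of most similar genes under rank correlation: of 3 genes, 1 was kept for A430035B10Rik, 0 for 1700027L20Rik, 0 for LOC100502914 and 1 for A930033H14Rik, while 2610034M16Rik kept 2. The cause was not tested. Over its alternatives the interquartile range lay between 0.69 and 0.82 for 2610034M16Rik, 0.73 and 0.86 for A430035B10Rik, 0.47 and 0.86 for 1700027L20Rik, 0.67 and 0.84 for LOC100502914, and 0.34 and 0.44 for A930033H14Rik. Leaving out the library richest in lens RNA and summing all records of a symbol were alternatives chosen after seeing the data. No paired analysis was possible because the count columns carry laboratory codes with no replicate number and no comparison between groups was made. Low counts, of 118 reads at most in a library, limit A430035B10Rik and 1700027L20Rik, and replicates cannot be told from conditions in the spread.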

Other observations

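The level of Pdzph1 (2610034M16Rik) left a gap between libraries. Its normalised read count was 4069 in CFG2279, 3894 in CFG2280, 4604 in CFG2281, 3934 in CFG2282, 4536 in CFG2283, 4069 in CFG2284, 3904 in CFG2285, 3818 in CFG2286, 2655 in CFG2287, 1734 in CFG2288, 2105 in CFG2289, 2387 in CFG2290, 2163 in CFG2291, 2143 in CFG2292, 2601 in CFG2293 and 2716 in CFG2294. Between 2716 and 3818, a step of 1.41-fold, there was no library, the next widest step was 1.21-fold, and 8 libraries lay on each side. The point values of LOC100502914 ran the other way, although its neighbouring libraries had overlapping counting intervals in 15 of 15 pairs, its widest step included. Its normalised read count was 91.3 in CFG2279, 124 in CFG2280, 119 in CFG2281, 124 in CFG2282, 88.8 in CFG2283, 96.8 in CFG2284, 95.7 in CFG2285, 113 in CFG2286, 157 in CFG2287, 259 in CFG2288, 230.3 in CFG2289, 185 in CFG2290, 191 in CFG2291, 179.9 in CFG2292, 169 in CFG2293 and 218 in CFG2294. Its widest step, of 1.27-fold, ran from 124 to 157, and the 8 libraries below it were the 8 above the gap of Pdzph1, with 0 libraries on the lower side of both. For Prss56 (1700027L20Rik), also with overlapping intervals in 15 of 15 pairs, the widest step was 1.49-fold, from 30.8 to 45.8, with 4 libraries below it, CFG2288, CFG2289, CFG2294 and CFG2290, all of them among the lower 8 of Pdzph1. In CFG2279 to CFG2286, the 8 libraries above the gap of Pdzph1, Prss56 was at least 56.5 (CFG2280), and elsewhere at most 52.5 (CFG2291). A430035B10Rik ran the other way, at most 60.4 there (CFG2283) and at least 68.3 elsewhere (CFG2292), again with overlapping intervals in 15 of 15 pairs. A930033H14Rik overlapped, at 594 in CFG2282 against 537 in CFG2287. These transcripts were chosen by the same contrast, so such gaps and their arrangement follow in part from the choice and are a description only. The labels give no group for any of these libraries, and none is inferred here.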
